A study of Mus musculus with 12 samples.

Results

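Sptssb and 8 further genes of sphingolipid synthesis were followed in mouse distal colon after a carcinogen, after a colitis agent, after both, and without treatment. The 9 genes are Sptssb, Sptssa, Sptlc1, Sptlc2, Degs1, Degs2, Cers6, Asah2 and Ugcg. They were taken by symbol, with every non-control probe that carries one of these symbols, which gave 14 probes for 9 of the 18539 gene symbols on the array. Of the 14 probes, all but 1, an Asah2 probe, passed the filter on dim probes, and each gene was among the 18957 tested. Of these 18957, 13513 carry a symbol. The others are array entries without one, and they are counted as genes in every share of all genes below. The 9 genes were chosen by symbol after their scaled levels and the differences between the 4 groups had been seen, so their levels and differences are a description and carry no p-value.

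Messenger RNA was measured on 12 one-colour oligonucleotide arrays, 3 for each of 4 groups, in epithelium of the distal colorectum from BALB/c mice. All mice were female and were sampled on day 100. The labels give an age of 5 to 7 weeks, which is less than 100 days and so was not the age at sampling. The AOM/DSS arrays hold neoplasms clipped from mice given 1 injection of azoxymethane (AOM, a colon carcinogen) at 12.5 mg/kg on day 1. From day 5 the same mice drank dextran sulfate sodium (DSS, which injures the colonic epithelium) for 5 days of each of 3 cycles of 21 days. The AOM arrays hold scraped epithelium of mice injected weekly, 6 times, with 10 mg/kg AOM, the DSS arrays that of mice given only the 3 DSS cycles, and the control arrays that of untreated mice. The AOM/DSS group thus differs from the AOM group in dose, schedule, dissection and storage of the tissue as well as in DSS, and these cannot be told apart. The labels do not state whether the 3 arrays of a group represent 3 mice.

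Sphingolipids are built from serine and a fatty acyl-CoA by serine palmitoyltransferase, whose core is a dimer of Sptlc1 with Sptlc2 or Sptlc3. A small subunit, Sptssa or Sptssb, is needed for full activity and sets which acyl-CoA is preferred, and enzymes with Sptssb accept longer chains. The product is reduced, acylated by a ceramide synthase such as Cers6 and desaturated by Degs1 to ceramide, or hydroxylated by Degs2 to phytoceramide, which is abundant in the gut epithelium. Ceramide is then glucosylated by Ugcg, the first step of most glycosphingolipids, turned into sphingomyelin, or cleaved by ceramidases, of which Asah2 is the neutral one of the brush border.

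The promoters of 4 of the genes are shown because Sptssb and its paralog Sptssa differed in how they varied over the arrays, and because Sptlc2 and Ugcg were both lower after AOM and in the neoplasms. Each sequence runs from 250 bases before the RefSeq transcription start to 50 bases from it, in the direction of the gene, with GC boxes (GGGCGG) and CCAAT boxes (CCAAT) on either strand in capitals.
Sptssb: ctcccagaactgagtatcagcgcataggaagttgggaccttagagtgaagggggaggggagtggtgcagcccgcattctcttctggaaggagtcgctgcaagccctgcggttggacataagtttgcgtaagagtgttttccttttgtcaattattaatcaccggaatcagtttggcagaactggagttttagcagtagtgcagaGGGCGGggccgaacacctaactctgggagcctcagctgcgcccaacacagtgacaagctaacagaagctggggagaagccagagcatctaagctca
Sptssa: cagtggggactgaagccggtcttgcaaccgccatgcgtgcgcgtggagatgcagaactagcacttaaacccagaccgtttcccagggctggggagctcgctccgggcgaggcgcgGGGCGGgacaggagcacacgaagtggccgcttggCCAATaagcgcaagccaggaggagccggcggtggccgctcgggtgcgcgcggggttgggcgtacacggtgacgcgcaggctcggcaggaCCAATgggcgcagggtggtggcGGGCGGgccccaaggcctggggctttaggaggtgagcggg
Sptlc2: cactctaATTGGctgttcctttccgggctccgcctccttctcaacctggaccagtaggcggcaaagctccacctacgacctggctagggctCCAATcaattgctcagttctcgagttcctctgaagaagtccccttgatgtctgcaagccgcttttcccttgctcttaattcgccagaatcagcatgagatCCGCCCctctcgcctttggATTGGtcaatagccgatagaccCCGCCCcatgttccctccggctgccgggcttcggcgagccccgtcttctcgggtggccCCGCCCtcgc
Ugcg: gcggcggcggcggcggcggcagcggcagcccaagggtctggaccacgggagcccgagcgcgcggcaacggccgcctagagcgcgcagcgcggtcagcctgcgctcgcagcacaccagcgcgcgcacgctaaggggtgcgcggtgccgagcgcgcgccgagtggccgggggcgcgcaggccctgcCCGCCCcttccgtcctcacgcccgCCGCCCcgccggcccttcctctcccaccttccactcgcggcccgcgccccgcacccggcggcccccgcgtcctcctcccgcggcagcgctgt
In GRCm38.p6 these lie at chr3:69859845-69860144 (Sptssb), chr12:54656523-54656822 (Sptssa) and chr12:87388306-87388605 (Sptlc2), all on the minus strand, and at chr4:59189300-59189599 on the plus strand (Ugcg). The Sptssb promoter held 9 CpG dinucleotides and 52.7% G and C, with 1 GC box and 0 CCAAT boxes. That of Sptssa held 31 CpG and 70% G and C, with 2 GC boxes and 2 CCAAT boxes. Sptlc2 had 19 CpG with 3 matches of each box, and Ugcg had 53 CpG with 2 GC boxes and 0 CCAAT boxes. The median over 32851 mouse promoters of this length was 7 CpG, and 54.2% of them had fewer than Sptssb, 89.4% fewer than Sptssa and 99.5% fewer than Ugcg. A GC box occurred in 35.7% and a CCAAT box in 37.4% of these promoters. Neither TATAAA (13.6% of all promoters), the TCF/LEF motif CTTTGAT (3.73%), the CDX motif TTTATNG (10.9%), the STAT motif TTCNNNGAA (8.3%) nor the HNF4 motif CAAAGTCCA (0.475%) occurred on either strand in the 4 windows. A match or its absence describes these letters and says nothing of binding.

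Levels are given as log2 of the processed spot intensity minus log2 of the array's 75th percentile, so that 0 is the brightness of the 75th percentile probe and 1 unit is a 2-fold difference. They can be set against each other between arrays for 1 gene, but not between genes, since probes differ in response. That percentile lay between 1115 and 1185 intensity units for the neoplasms and between 393 and 694 for scraped epithelium, and no spot was saturated. The 10 pan-epithelial markers were all well above background on all 12 arrays, at a mean level of 5.49 to 6.42 on the scraped samples and 4.50 to 4.74 in the neoplasms. The slide of each array is recorded in the file headers: AOM 1 and 2 lie with AOM/DSS 1 and 2, AOM 3 lies with the 3 DSS arrays, and AOM/DSS 3 lies with the 3 controls. AOM and control arrays share no slide, and neither do DSS and control arrays.

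Sptssb, the small subunit linked to longer-chain sphingoid bases, was low in untreated epithelium and high after DSS. Its processed intensity was 51, 186 and 109 on control replicates 1, 2 and 3, whereas the DSS arrays read 2990, 4280 and 2040. The AOM arrays read 1350, 1000 and 1060, and the neoplasms 849, 557 and 451. The 3 groups of scraped epithelium were thus fully apart even before scaling, and the probe was well above background on all 12 arrays.

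On the scaled log2 level, Sptssb was at -2.95, -1.37 and -2.64 on the control arrays (mean -2.32 ± 0.84 SD, n = 3). It was at 2.16, 2.94 and 2.23 after DSS (2.44 ± 0.43) and at 1.57, 0.58 and 0.61 after AOM (0.92 ± 0.56). The neoplasms were at -0.41, -1.0 and -1.39 (-0.94 ± 0.49). The order of the group means was therefore DSS, AOM, AOM/DSS and control. Neighbours in that order did not overlap, except that the lowest neoplasm (AOM/DSS replicate 3) was 0.02 below the highest control (replicate 2).

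**Figure D1:**
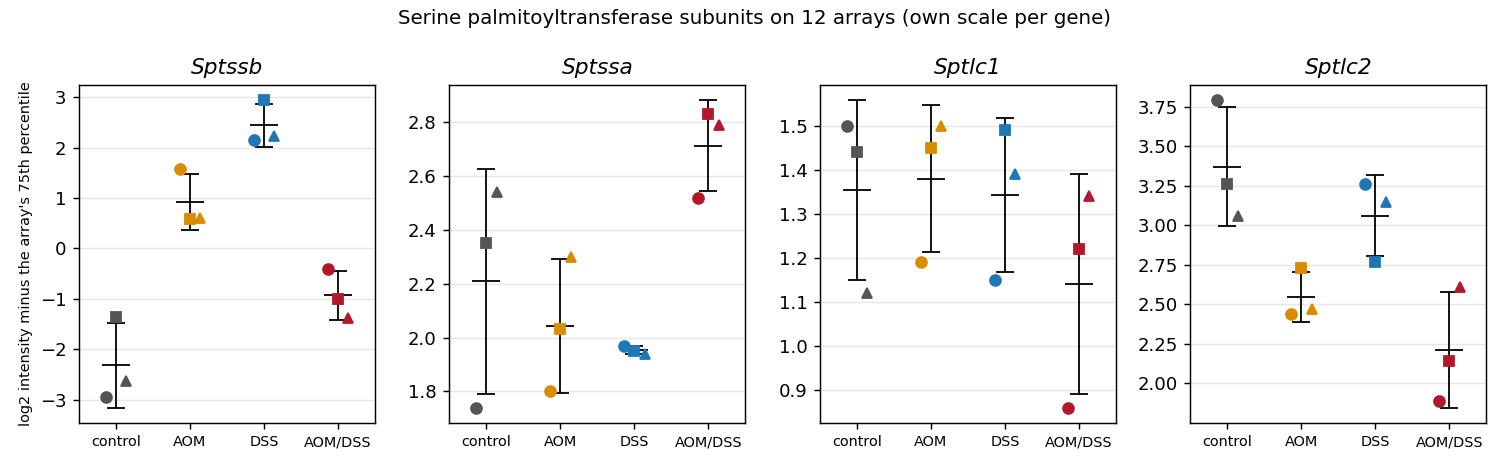
Scaled log2 level (log2 intensity minus that of the array's 75th percentile) of the serine palmitoyltransferase genes on 12 arrays, by group, each gene on its own axis. Circles, squares and triangles are replicates 1, 2 and 3, long bars are group means and whiskers are 1 SD (n = 3); Sptssb ran from a mean of -2.32 in control to 2.44 after DSS, while Sptlc1 means lay between 1.14 and 1.38.

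Against control, Sptssb was higher by 4.76 ± 0.45 log2 units after DSS (SE of the limma fit; 27.2-fold), by 3.24 ± 0.45 after AOM (9.47-fold) and by 1.38 ± 0.45 in the neoplasms (2.61-fold). These 3 differences share the control arrays and are not independent of each other. The neoplasms were lower than AOM epithelium by -1.86 ± 0.45 log2 units (3.63-fold). In comparisons added after the data were seen, DSS epithelium was above AOM epithelium by 1.52 ± 0.45 (2.87-fold), and the neoplasms were below DSS epithelium by -3.38 ± 0.45 (10.4-fold).

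With the slide as a block, the Sptssb differences were 4.55 ± 1.09 for DSS against control, 2.71 ± 0.87 for AOM against control and 0.93 ± 0.66 for AOM/DSS against control. The first and second of these are chained across slides. Within single slides, AOM/DSS replicate 3 was 0.93 above the 3 controls, AOM/DSS replicates 1 and 2 were -1.79 from AOM replicates 1 and 2, and the 3 DSS arrays were 1.83 above AOM replicate 3. Background correction by normexp gave 3.09, 1.95 and 0.27 for DSS, AOM and AOM/DSS against control. The order of the groups was kept, and the neoplasms then lay close to control.

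Bulk RNA cannot tell more cells of a type from more Sptssb RNA per cell, so markers of other cell types are given beside these values. The 8 fibroblast markers, all well above background on every array, had a mean level of 0.57, -0.49 and 3.21 on the controls (replicates 1, 2 and 3), and of 2.40 to 3.27 in the treated mice. The 6 endothelial markers, of which 0 were well above background on every array, ran likewise: -4.35, -4.36 and -1.74 on the controls and -2.43 to -1.36 on the others. On control replicate 3, a single array, Sptssb was at -2.64. The 5 macrophage markers were at 0.11, -1.34 and 1.54 on the controls and 1.90 to 3.18 on the others. The 6 neutrophil markers were at -4.68 to -3.66 on the controls, -2.97 to -0.29 after DSS, -0.74 to -0.24 after AOM and 0.97 to 1.77 in the neoplasms. Among the treated groups the neoplasms had the highest neutrophil markers and the lowest mean Sptssb, while the controls were the lowest group in both. The 6 B and plasma cell markers, 5 of them well above background on every array, were at 1.57, 0.16 and 2.43 on the controls, 0.75 to 4.12 after AOM, 2.97 to 3.70 after DSS and -2.06 to -0.20 in the neoplasms. The 6 T cell markers were at -2.31 to -0.38 on the controls, -1.15 to 2.17 after AOM, 0.11 to 0.69 after DSS and -1.84 to -0.71 in the neoplasms, and the 6 smooth muscle markers at -0.02 to 2.57, 2.37 to 3.05, 2.04 to 2.95 and 0.57 to 0.79. Like Sptssb, these 3 lists were higher after DSS than in the neoplasms on every array. Their mean over the neoplasms was below that over the controls, though for the T cell and smooth muscle lists the arrays overlapped. The part of any of these cell types in the Sptssb levels was not tested.

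Pancreatic acinar genes, of which 8 were tested, stood out on control replicate 3 (6.27) and DSS replicate 1 (3.63). They were at 1.91 and -0.88 on control replicates 1 and 2 and at -2.67 and -2.25 on the other DSS arrays. The AOM arrays were at -3.41 to -3.33 and the neoplasms at -4.42 to -3.88. Sptssb was at 2.16 on DSS replicate 1 and at 2.94 and 2.23 on DSS replicates 2 and 3. The part of pancreatic tissue in the Sptssb levels was not tested. Without DSS replicate 1, control replicate 3 or any other single array, the DSS difference from control ran from 4.45 to 5.24, that of AOM from 2.92 to 3.72 and that of the neoplasms from 1.07 to 1.86.

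Sptssa, the ubiquitous paralog of Sptssb, followed another order. Its level was 1.74, 2.35 and 2.54 on the controls (2.21 ± 0.42 SD, n = 3), 1.80, 2.03 and 2.30 after AOM (2.04 ± 0.25), 1.97, 1.95 and 1.94 after DSS (1.95 ± 0.02) and 2.52, 2.83 and 2.79 in the neoplasms (2.72 ± 0.17). The neoplasms were the highest group, apart from both AOM and DSS but overlapping control. The differences were 0.68 ± 0.24 from AOM, 0.77 ± 0.24 from DSS and 0.51 ± 0.24 from control. AOM and DSS epithelium lay within 0.26 log2 units of control, less than the SD among the controls.

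Sptlc1, the invariant core subunit, hardly varied on the scaled level. It was at 1.50, 1.44 and 1.12 on the controls (1.35 ± 0.20 SD, n = 3), 1.19, 1.45 and 1.50 after AOM (1.38 ± 0.17), 1.15, 1.49 and 1.39 after DSS (1.34 ± 0.18) and 0.86, 1.22 and 1.34 in the neoplasms (1.14 ± 0.25). All group ranges overlapped their neighbours, and no group mean differed from another by more than 0.24. The intensity before scaling was higher in the neoplasms, at 2050, 2600 and 2990 against 1110, 1300 and 1470 on the controls.

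Sptlc2, the catalytic partner of Sptlc1, was lower after AOM and in the neoplasms. Its brightest probe read 3.79, 3.26 and 3.06 on the controls (3.37 ± 0.38 SD, n = 3), 3.26, 2.77 and 3.15 after DSS (3.06 ± 0.26), 2.44, 2.73 and 2.47 after AOM (2.55 ± 0.16) and 1.89, 2.14 and 2.61 in the neoplasms (2.22 ± 0.37). Control and DSS values overlapped, as did AOM and AOM/DSS values, and neither AOM nor AOM/DSS overlapped control. The differences from control were -1.16 ± 0.26 in the neoplasms, -0.82 ± 0.26 after AOM and -0.31 ± 0.26 after DSS. The other Sptlc2 probes gave -0.62 and -1.29 for the neoplasms and -0.61 and -1.0 for AOM. With the slide as a block the neoplasms stood at -0.76, AOM at -0.19 and DSS at 0.40, so the sign for DSS depended on the slide term. Before scaling, the intensity of the brightest probe was 5450, 4630 and 5650 on the controls, 2470, 4440 and 3850 after AOM, and 4190, 4920 and 7250 in the neoplasms. The neoplasms overlapped control there, and their lower level appears only once the arrays are scaled or normalized to each other. Median scaling gave -1.31 for the neoplasms against control and quantile normalization -0.94.

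Degs1 was higher after AOM, and Degs2 was lower in the neoplasms. Degs1, which makes the double bond of ceramide, was at 0.96, 1.42 and 1.92 on the controls (1.43 ± 0.48 SD, n = 3), 2.58, 2.09 and 2.08 after AOM (2.25 ± 0.29), 1.80, 2.55 and 1.96 after DSS (2.10 ± 0.40) and 1.82, 1.73 and 1.91 in the neoplasms (1.82 ± 0.09). AOM arrays lay above all controls, by 0.82 ± 0.29 between the means. The DSS and AOM/DSS values, 0.67 ± 0.29 and 0.39 ± 0.29 above control, overlapped it.

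Degs2, the hydroxylase of phytoceramide, was at 6.42, 6.18 and 5.71 on the controls (6.10 ± 0.36 SD, n = 3), 5.98, 5.75 and 5.98 after AOM (5.90 ± 0.14), 5.50, 5.99 and 6.43 after DSS (5.97 ± 0.47) and 5.00, 5.50 and 5.30 in the neoplasms (5.27 ± 0.25). The neoplasms were below every control and AOM array, by -0.83 ± 0.28 and -0.64 ± 0.28, while DSS replicate 1 was level with AOM/DSS replicate 2. The size of this difference depended on the scaling: quantile normalization gave -0.28 against control and -0.06 against AOM, and normexp gave -0.17 against control. Before scaling, the neoplasms were the brighter, at 36100, 50500 and 46800 against 33700, 34800 and 35400 on the controls.

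**Figure D2:**
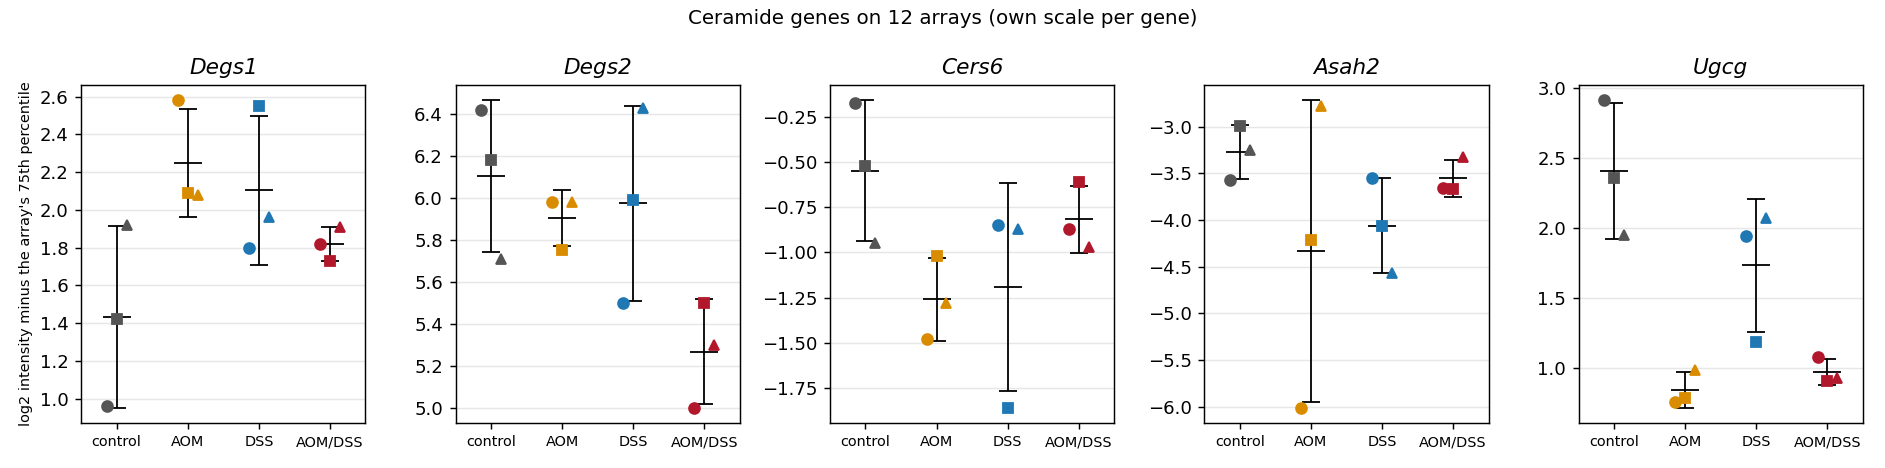
Scaled log2 level of the ceramide genes on 12 arrays, by group, each gene on its own axis, with the brightest probe of Asah2 and Ugcg. Circles, squares and triangles are replicates 1, 2 and 3, long bars are means and whiskers are 1 SD (n = 3); Ugcg was at 1.95 to 2.91 in control and at 0.76 to 1.08 on the AOM and AOM/DSS arrays.

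Cers6, the ceramide synthase that uses C16 acyl-CoA, was at -0.17, -0.52 and -0.95 on the controls (-0.55 ± 0.39 SD, n = 3), -1.48, -1.02 and -1.28 after AOM (-1.26 ± 0.23), -0.85, -1.86 and -0.87 after DSS (-1.19 ± 0.58) and -0.87, -0.61 and -0.97 in the neoplasms (-0.82 ± 0.19). It was lower than control by -0.72 ± 0.31 after AOM, where the ranges were 0.07 apart, and by -0.65 ± 0.31 after DSS, where they overlapped. The value for the neoplasms was -0.27 ± 0.31. Their intensity before scaling was higher than that of the controls, at 618, 729 and 604 against 349, 337 and 351.

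Asah2 was read close to background. Its brightest probe was well above background on 8 of 12 arrays, of which 2 were controls, 2 AOM, 1 DSS and 3 AOM/DSS. It read -3.57, -2.99 and -3.25 on the controls (-3.27 ± 0.29 SD, n = 3), -6.01, -4.21 and -2.78 after AOM (-4.33 ± 1.62), -3.55, -4.06 and -4.57 after DSS (-4.06 ± 0.51) and -3.66, -3.67 and -3.32 in the neoplasms (-3.55 ± 0.20). All groups overlapped, the AOM mean rested on replicate 1, which was not well above background, and without it the difference from control moved from -1.06 ± 0.63 to -0.22. A further kept probe gave -0.28 for AOM against control and 0.15 for DSS, so no direction is given for this gene.

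Ugcg, the glucosylceramide synthase, had the largest negative differences from control of the 9 genes after AOM and in the neoplasms. Its brightest probe was at 2.91, 2.36 and 1.95 on the controls (2.41 ± 0.48 SD, n = 3), 1.94, 1.19 and 2.07 after DSS (1.73 ± 0.48), 1.08, 0.91 and 0.93 in the neoplasms (0.97 ± 0.09) and 0.76, 0.79 and 0.99 after AOM (0.85 ± 0.12). On this probe the AOM and AOM/DSS arrays overlapped each other and lay below every control and DSS array. Against control the difference was -1.56 ± 0.29 after AOM (2.95-fold), -1.43 ± 0.29 in the neoplasms (2.70-fold) and -0.68 ± 0.29 after DSS. A further Ugcg probe gave -1.53, -1.09 and -0.47; there AOM and AOM/DSS arrays were also below every control, but DSS replicate 2 (0.23) was below AOM replicate 1 (0.29) and AOM/DSS replicates 1 and 2 (0.79 and 0.36). Before scaling, the intensity of the brightest probe was 2960, 2480 and 2610 on the controls, 768, 1160 and 1380 after AOM, and 2390, 2100 and 2260 in the neoplasms, so that the neoplasms then lay just below the controls. With the slide as a block the values were -1.70, -1.48 and -0.96.

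Markers of mature epithelium moved in part with Ugcg and Sptlc2. The 9 absorptive colonocyte markers had a mean level of 4.60 to 5.54 on the controls, 4.35 to 4.71 after DSS, 3.33 to 4.17 after AOM and -0.37 to 1.08 in the neoplasms. The 10 goblet cell markers were at 6.53 to 7.29, 5.93 to 7.08, 5.85 to 6.39 and 1.30 to 3.80. In the neoplasms 8 of the 9 absorptive and 10 of the 10 goblet cell markers fell against control by the limma test (17.5% of all genes fell), and after AOM 4 and 1 did (17.6% of all genes), while the mean level of Ugcg was 0.85 after AOM and 0.97 in the neoplasms. The part of these cells in the levels of Ugcg, Sptlc2 and Degs2 was not tested.

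**Figure D3:**
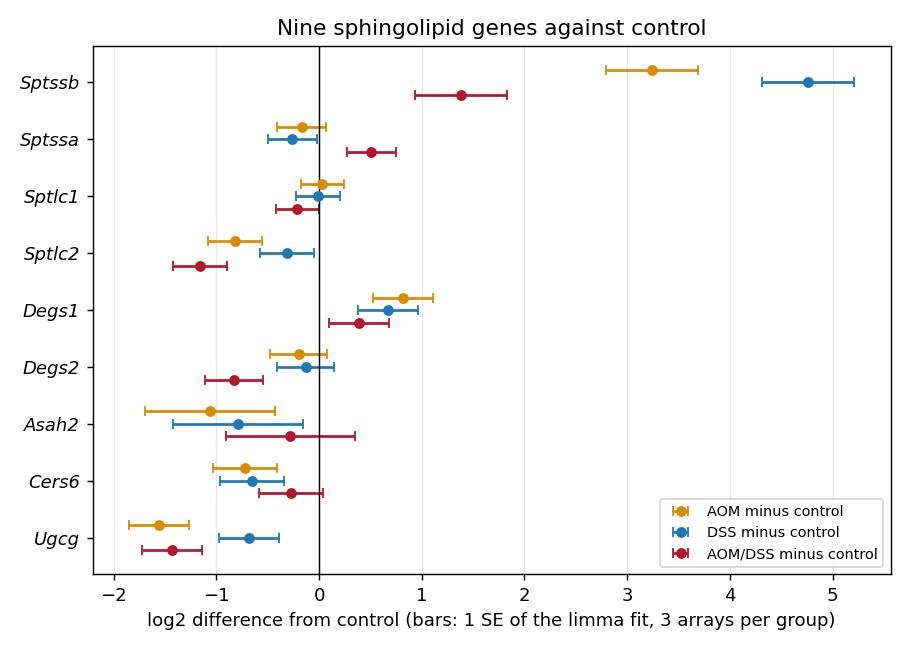
Difference from control in log2 units for the 9 genes after AOM, after DSS and in AOM/DSS neoplasms, with bars of 1 SE of the limma fit (3 arrays per group); the 3 series share the control arrays. Sptssb lies at 1.38 to 4.76, and the other 8 genes lie between -1.56 and 0.82.

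By the limma test at an adjusted p under 0.05, 4 of the 9 genes were called in the neoplasms against control (Sptssb higher, and Sptlc2, Degs2 and Ugcg lower), where 34.7% of all genes tested were called. After AOM 3 were called (Sptssb higher, Sptlc2 and Ugcg lower; 32.4% of all genes), and after DSS Sptssb alone was (0.327% of all genes). Between neoplasms and AOM epithelium 2 were called (Sptssa higher, Sptssb lower; 37.1%), between DSS and AOM 0 (0.0106%), and between neoplasms and DSS 3 (35.9%): Sptssa higher (17.6% of all genes were called higher) and Sptssb and Sptlc2 lower (18.3% lower). Since the genes were picked with these contrasts known, nothing is read from these counts. None of these calls (0) was made with the slide as a block. Out of 21 alternatives, the call of Sptssb after DSS was also lost with normexp and without DSS replicate 2, and its call in the neoplasms against control was made in 14. The calls of Ugcg after AOM and in the neoplasms, and that of Sptlc2 in the neoplasms, were made in 19 each. Those of Sptlc2 after AOM, Degs2 in the neoplasms and Sptssa against AOM were made in 10, 9 and 9. The median difference of the 9 genes from control was -0.27 in the neoplasms, -0.20 after AOM and -0.26 after DSS, beside 0.03, -0.01 and -0.02 over all genes tested. Over the alternative settings and left-out arrays, the sign was kept by 8 of 9 genes for AOM/DSS against control (not Sptlc1). It was kept by 6 for AOM (not Sptssa, Sptlc1 and Degs2) and by 6 for DSS (not Sptlc1, Sptlc2 and Degs2).

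The rest of the sphingolipid pathway was read from a list of 64 further genes, of which 59 are on the array and 56 were tested. The list was written with earlier results of these data known. In the neoplasms 5 of the 56 rose and 16 fell against control (limma, Benjamini-Hochberg adjusted p under 0.05 over all 18957 genes; background 17.2% higher and 17.5% lower). After AOM 6 rose and 8 fell (background 14.8% and 17.6%), and after DSS 0 rose and 1 fell (background 0.164% and 0.164%). The median difference was -0.17, 0.19 and 0.11 log2 units. The counts depended on the setting: with the slide as a block 11, 0 and 0 of the 56 were called, and with normexp 11, 5 and 0. Over all 18957 genes tested, 2210, 4 and 2 were called with the slide as a block, and 2744, 1862 and 1 with normexp. The AOM count of 14 went to 9 without AOM replicate 1, 6 without AOM replicate 2, and 7 without control replicate 1 or control replicate 2. Over all genes the AOM count of 6144 then went to 5016, 1972, 2340 and 2765. The DSS count of 1 went to 7 without DSS replicate 1 or control replicate 3, and to 0 without DSS replicate 2, DSS replicate 3, control replicate 1, control replicate 2, AOM replicate 2, AOM replicate 3 or AOM/DSS replicate 2. Over all genes the DSS count of 62 then went to 3191 and 1334, and to 1, 8, 10, 24, 29, 33 and 37, in the same order.

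Of the 4 tested regulators of serine palmitoyltransferase and the reductase of its product, 0 were called in the neoplasms against control (34.7% of all genes), 1 after AOM (32.4%) and 2 between neoplasms and AOM epithelium (37.1%). Ormdl3, which restrains the enzyme when ceramide is plentiful, rose after AOM by 0.68 ± 0.23 log2 units (limma adjusted p = 0.048) and was lower in the neoplasms than after AOM by -0.72 ± 0.23 (limma adjusted p = 0.036). Ormdl1, of the same family, was higher in the neoplasms than after AOM by 1.16 ± 0.24 (limma adjusted p = 0.0081). With the slide as a block the Ormdl1 call was kept (limma adjusted p = 0.035). Neither Ormdl3 call was (adjusted p = 0.48 for AOM against control and 0.14 for neoplasms against AOM). Sptlc3, the alternative catalytic subunit, did not pass the filter on dim probes. Of the 3 ceramide synthases tested beside Cers6, Cers4 fell in the neoplasms by 1.90 ± 0.33 log2 units (limma adjusted p = 0.0019), and after AOM it was at -0.77 ± 0.33 (adjusted p = 0.093).

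Of the 5 tested ceramidase and ceramide kinase genes, 2 rose and 1 fell in the neoplasms (17.2% of all genes rose and 17.5% fell). Acer1, an alkaline ceramidase best known from epidermis, fell in the neoplasms from 4.66 ± 0.27 to 0.13 ± 0.59 (SD, n = 3), a difference of -4.53 ± 0.35 (limma adjusted p = 2.6e-05), and after AOM it fell by 2.19 ± 0.35 (adjusted p = 0.0052). Acer3 rose in the neoplasms by 1.15 ± 0.23 (adjusted p = 0.0039). Acer2, the Golgi form, rose by 1.99 ± 0.50 (adjusted p = 0.012), but it was well above background on 1 of 3 controls and its sign turned with normexp. With the slide as a block the neoplasm values were -5.17 for Acer1, 1.42 for Acer3 and 1.51 for Acer2. Acer2 was then no longer called (adjusted p = 0.22), nor was Acer1 after AOM (adjusted p = 0.17).

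Of 9 genes of sphingomyelin synthesis and breakdown 5 fell and 0 rose in the neoplasms (17.5% of all genes fell and 17.2% rose). Among them the lysosomal sphingomyelinase Smpd1 fell by 1.31 ± 0.26 log2 units (limma adjusted p = 0.004) and Smpdl3a by 1.29 ± 0.31 (adjusted p = 0.0089). Neither call was kept with the slide as a block (adjusted p = 0.078 and 0.16). The synthase Sgms2 fell by 1.20 ± 0.20 after AOM (adjusted p = 0.0057), which was not called with the slide as a block (adjusted p = 0.28). In the neoplasms Sgms2 differed from control by -1.22 ± 0.20 (adjusted p = 0.0013). Of 9 genes of glycosphingolipid synthesis 1 rose and 2 fell in the neoplasms (17.2% and 17.5% of all genes). Fa2h, which hydroxylates the fatty acid of ceramide, fell by 3.75 ± 0.42 (adjusted p = 0.00017) and the sulfatide-forming Gal3st1 by 2.30 ± 0.27 (adjusted p = 2e-04). B4galt6, a lactosylceramide synthase that acts on the product of Ugcg, rose by 1.41 ± 0.23 (adjusted p = 0.0012, and 0.051 with the slide as a block).

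Of 12 genes of glycosphingolipid breakdown 4 fell and 0 rose in the neoplasms (17.5% and 17.2% of all genes). Neu3, the plasma membrane sialidase of gangliosides, fell by 3.05 ± 0.29 log2 units in the neoplasms (limma adjusted p = 7.1e-05). Its difference from control was -1.71 ± 0.29 after AOM (adjusted p = 0.0059) and -1.80 ± 0.29 after DSS (adjusted p = 0.037). After DSS it was the 1 of the 56 that was called, where 0.164% of all genes were called lower. With the slide as a block the Neu3 call was kept in the neoplasms (limma adjusted p = 0.0058). It was lost after AOM (adjusted p = 0.3) and after DSS (adjusted p = 0.8).

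Among 10 tested genes of sphingosine 1-phosphate, the signalling lipid made from ceramide's backbone, the exporter Spns2 had the largest called rise in the neoplasms and after AOM. It went from -2.39 ± 0.85 (SD, n = 3) on the controls to 1.06 ± 0.43 in the neoplasms and 0.94 ± 0.37 after AOM, a rise of 3.45 ± 0.42 and 3.33 ± 0.42 log2 units (limma adjusted p = 0.00024 and 0.003). After DSS it was at 2.21 ± 0.42 above control (adjusted p = 0.057), beside 2.51 ± 0.69 for Sphk1 (adjusted p = 0.13). The kinase Sphk1 rose by 2.33 ± 0.69 in the neoplasms and 2.43 ± 0.69 after AOM (adjusted p = 0.025 for both), while its paralog Sphk2 fell in the neoplasms by 1.46 ± 0.26 (adjusted p = 0.0023). With the slide as a block Spns2 was at 3.84 in the neoplasms (adjusted p = 0.0087) and 3.89 after AOM (adjusted p = 0.2), and Sphk1 at 1.98 and 2.12, not called. Spns2 is also made by endothelium, whose markers ran as given above, and Sphk1 by many cell types; that part was not tested.

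Of 4 carriers of sphingolipids 2 fell after AOM and 2 in the neoplasms (17.6% and 17.5% of all genes fell). Plekha8, which transfers glucosylceramide, differed from control by -1.77 ± 0.20 log2 units after AOM (limma adjusted p = 0.0028) and by -1.02 ± 0.20 in the neoplasms (adjusted p = 0.0036). The ceramide carrier Cert1 differed by -1.12 ± 0.25 after AOM (adjusted p = 0.013). Gltp, which binds glycolipids, fell by 1.03 ± 0.29 in the neoplasms (adjusted p = 0.019). Neither neoplasm call was kept with the slide as a block (adjusted p = 0.074 for Plekha8 and 0.27 for Gltp). The AOM calls were not kept either (adjusted p = 0.2 for Plekha8 and 0.27 for Cert1).

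**Figure D4:**
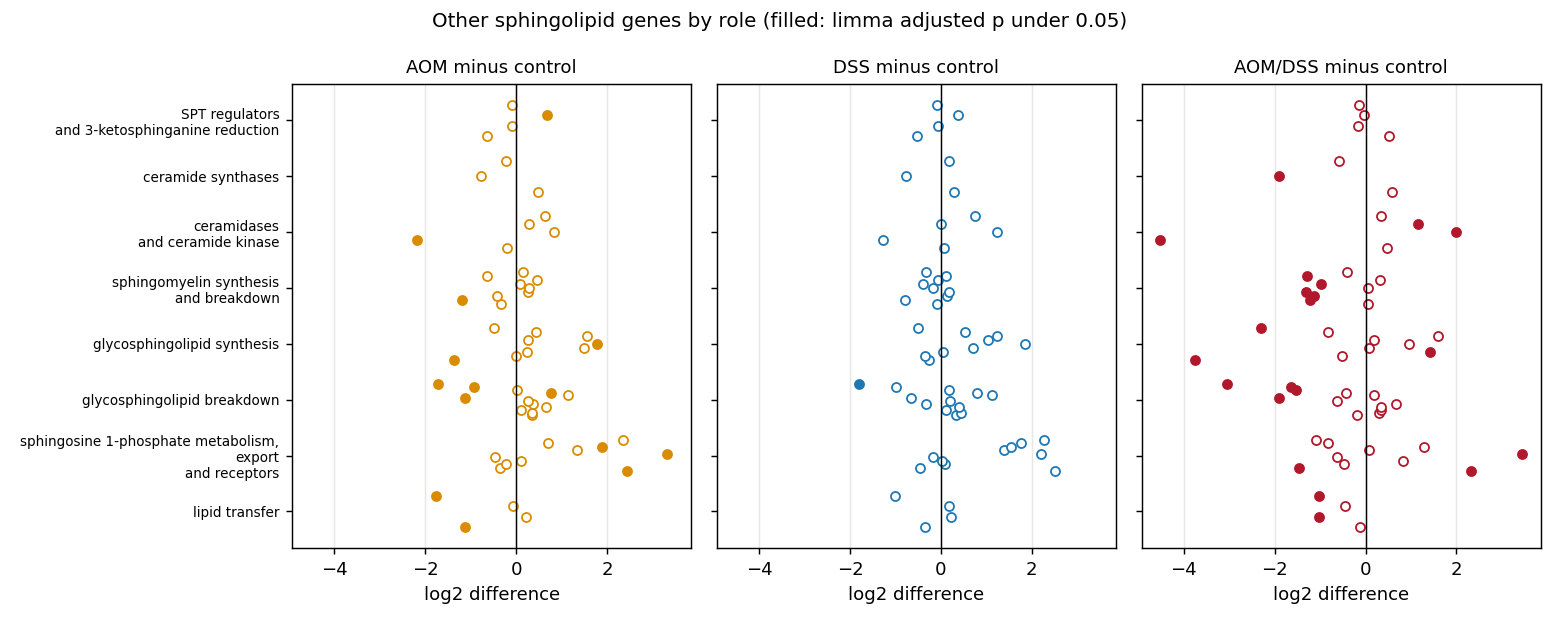
Differences from control in log2 units for the 56 further sphingolipid genes, 1 point per gene, arranged by role, after AOM, after DSS and in AOM/DSS neoplasms; filled points have a limma adjusted p under 0.05. The called genes number 14, 1 and 21, with Acer1 farthest to the left in the neoplasms (-4.53) and Spns2 farthest to the right (3.45).

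Between neoplasms and AOM epithelium, 6 of the 56 genes rose and 16 fell (background 19.5% higher and 17.7% lower), with a median of -0.46. Fa2h differed by -2.38 ± 0.42 (limma adjusted p = 0.0048) and Acer1 by -2.34 ± 0.35 (adjusted p = 0.0024). Smpd1 fell by 1.57 ± 0.26 (adjusted p = 0.0039) and the sulfatidase Arsa by 1.55 ± 0.26 (adjusted p = 0.0036). B4galt6 and Cert1 rose by 1.17 ± 0.23 and 0.99 ± 0.25 (adjusted p = 0.0065 and 0.016). With the slide as a block all 22 kept their sign and 12 were called, and without AOM replicate 1 the count was 13. With normexp 0 were higher and 6 lower, and with median scaling 2 were higher and 21 lower. Over all genes 1249 were called with normexp and 7494 with median scaling, of which 40.7% and 33.7% were higher. In the main fit 52.4% of 7041 were higher, so calls over all genes also shifted towards lower. The median difference of all genes was -0.13 with normexp and -0.36 with median scaling, beside -0.04 in the main fit.

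Genes with a pattern like that of Sptssb were sought among 13475 named genes by Pearson's r over the 12 arrays, which share their group, array and scaling, so the values are a description. The highest was Fut10, a fucosyltransferase family gene (r = 0.944). Prap1, a secreted proline-rich acidic protein of the gut, followed (0.908), then 9130008F23Rik (0.905), Clip2 (0.900), Pdx1 (0.897), Ppp1r3a (0.892), Ccn5 (0.887) and Lman1l (0.883). Over the 9 arrays without the neoplasms r ran from 0.886 to 0.978 for these 8. Prap1 went from -2.75 ± 0.43 (SD, n = 3) on the controls to -0.85 ± 0.62 after AOM and -0.27 ± 0.11 after DSS, with -2.18 ± 1.21 in the neoplasms. Fut10, Pdx1, Ppp1r3a, Ccn5 and Lman1l were well above background on 0 of 3 controls, so that only bounds hold. Fut10 was at least 3.66-fold higher after DSS and at least 2.46-fold after AOM, and Ccn5 at least 3.67-fold and 2.36-fold. Within the sphingolipid genes the closest were the glucosylceramidase Gba2 (r = 0.754, rank 119), B4galnt1 (0.716) and Degs1 (0.708, rank 265).

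**Figure D5:**
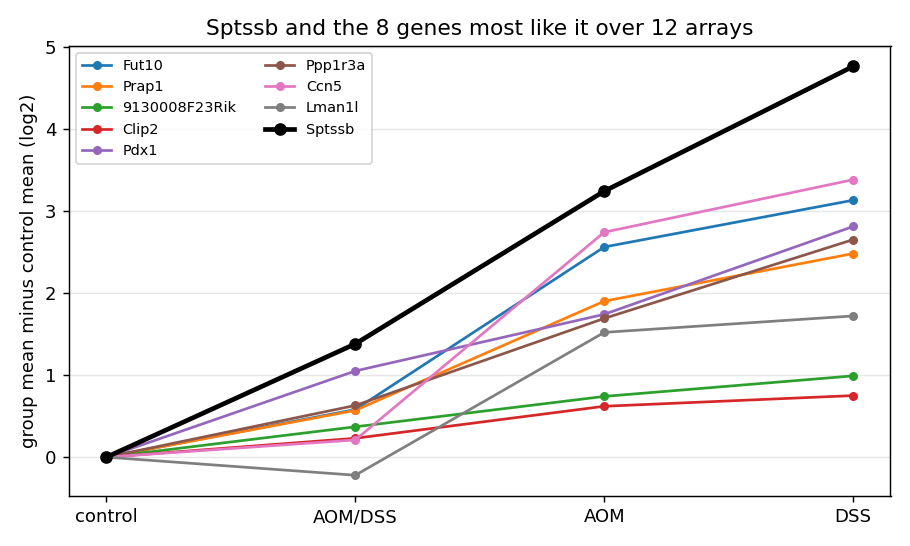
Group mean minus control mean in log2 units for Sptssb (black) and the 8 genes most like it by Pearson's r over 12 arrays, with the groups in the order of the Sptssb means; lines join the groups only to guide the eye, and each point is a mean of 3 arrays. Sptssb reaches 4.76 after DSS; 5 of the 8 others were not well above background on any control array, so their points rest on dim control signals.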

How the data were processed

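Total RNA was labelled with Cy3 and hybridised to one-colour arrays. The deposited scanner files hold intensity values after removal of background and spatial trend, from Agilent's Feature Extraction software, whose version is 10.7.3.1 per the file headers (the submitters' processing notes give 10.7). They also hold the deposited background, saturation and outlier flags. The deposited series matrix holds log2 values by the authors, quantile normalized as far as the values show (sorted columns equal within 0.000945); it was used as an alternative. The grid was annotated on another build than the GRCm38.p6 RefSeq tables used here for symbols (27198 of 41174 probes) and promoters (9 of 9 genes), so the only coordinates given are those of the promoters, in GRCm38.p6, and no probe is placed.

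Each array's 75th percentile was subtracted from log2 intensity. Probes were kept if well above background on all 3 arrays of 1 group or more, and the brightest kept probe stood for its gene. Group means were fitted with lmFit and eBayes of limma 3.58.1 in R 4.3.3, with Benjamini-Hochberg adjustment over 18957 genes and a threshold of 0.05. The p-values reflect only how far these samples vary, which may be technical variation. The script was tested on simulated data. A fold given as "at least" has a lower group with 0 arrays well above background; each array then stands at the higher of its dimmest passing probe and the gene's own value. Array number limits the precision. No arrays were duplicates (highest pairwise r 0.984).

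The 9 genes, the lists and the naming rule were chosen with earlier results of these data known. Named were all 9 genes with every probe, in each role group up to 2 called genes per direction with the largest difference, or, in groups without a call, the one of smallest p, and the 8 genes most like Sptssb. Not every such gene is printed. Alternatives were normexp (offset 50), quantile normalization, the authors' series matrix, scaling to the median, no filter, a filter on all 12 arrays, the mean of a gene's probes, slide and replicate number as blocks, and leaving out each array. The comparisons DSS with AOM and AOM/DSS with DSS were added after the data were seen.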

Additional observations from a re-analysis of the deposited data

How the results depend on the processing

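The Sptssb differences kept their direction in every setting run and moved beyond the spread between arrays only with normexp background correction, to 0.27 (AOM/DSS against control), 1.95 (AOM) and 3.09 (DSS). The other 8 genes kept or lost their sign as given above. Counts of all genes called (6581 for AOM/DSS against control, 6144 for AOM, 62 for DSS, 7041 for AOM/DSS against AOM) were 2744, 1862, 1 and 1249 with normexp, and 2210, 4, 2 and 2828 with the slide as a block. Without the filter they were 13819 for AOM/DSS against control and 39 for DSS. The DSS count was 125 with quantile normalization, 126 with the series matrix and 40 with the replicate block. Leaving out single arrays gave 4304 to 7380, 1972 to 7302, 1 to 3191 and 3370 to 8087. The first was lowest without control replicate 1. The AOM count was 1972 and 3574 when AOM replicates 2 and 3 were left out, and 2340 and 2765 when control replicates 1 and 2 were. The DSS count was 3191 without DSS replicate 1, 1334 without control replicate 3, 1, 8, 10 and 24 without DSS replicates 2 and 3 and control replicates 1 and 2, and 29, 33 and 37 without AOM replicates 2 and 3 and AOM/DSS replicate 2. The last was 3370, 4285, 4439 and 4454 without AOM/DSS replicates 1 and 2 and AOM replicates 1 and 2. For the 56 further sphingolipid genes (21, 14, 1 and 22 called) normexp gave 11, 5, 0 and 6, and the slide block 11, 0, 0 and 13. Without the filter 9 were called for AOM and 0 for DSS. For DSS the count was 0 with median scaling or the replicate block, and 2 with quantile normalization, the series matrix or the filter on all 12 arrays. Leaving out single arrays gave 17 to 26, 6 to 17, 0 to 7 and 13 to 24. The cause of these changes was not tested. The share of higher calls was 49.7% for AOM/DSS against control, 39.1% with median scaling and 39.6% with normexp. For AOM/DSS against AOM it was 52.4%, 33.7% and 40.7%, and for AOM against control 45.7%, 53.7% and 57.1%. Median scaling moved the median of all genes to -0.12, 0.16 and -0.36 for AOM/DSS against control, AOM against control and AOM/DSS against AOM, and normexp moved it to -0.32, -0.27 and -0.13. Replicate numbers did not pair the arrays: over 18 same-number pairs the correlation of deviations ran from -0.27 to 0.25, with 7 over 0.1. As a replicate block they left every Sptssb difference as it was (1.38, 3.24 and 4.76). Levels near background, as for Asah2, are limited by signal.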
